A study of Mus musculus with 4 samples.

Results

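Mitochondrial ribosomal protein genes were represented by 72 of the 22702 probes on the array, with 1 probe for each of 72 genes. The members were all probes whose single platform gene symbol begins with Mrpl or Mrps followed by a digit, which gave 47 genes of the large subunit and 25 of the small subunit. Their RNA was measured in metanephric mesenchyme (MM), the mesenchyme from which the nephrons of the permanent kidney form, against intermediate mesoderm (IM), the mesodermal strip that gives rise to kidney, gonad and adrenal cortex. Both tissues were dissected from mouse embryos of both sexes at 10.5 days post coitum (dpc). The labels state no strain, genotype or treatment and do not say how many embryos were pooled. Each of 4 two-colour oligonucleotide arrays carried amplified RNA of both tissues, with MM as channel 1 on arrays 1 and 2 and as channel 2 on arrays 3 and 4. On arrays 3 and 4 the source labels read intermediate mesenchyme and metanephric mesoderm, which were taken as the same tissues.

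Every value is a log2 ratio of MM over IM, so a positive value is higher in MM. That direction is the likely one, from the order of the tissues in the titles and from channel 1 of arrays 1 and 2, since the dye of each channel is not given in the sources used here. In such bulk tissue, fewer cells of a type and less RNA per cell cannot be told apart.

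Mitochondria make the few core respiratory chain proteins of their own genome on a dedicated ribosome. Its RNAs are encoded in mitochondrial DNA, but all of its proteins are encoded in the nucleus, made in the cytosol and imported. Many of these proteins descend from bacterial ribosomal proteins, and the others were added during the evolution of mitochondria. The large subunit joins amino acids and holds the exit tunnel, and the small subunit binds the mRNA and reads the codons. In the embryonic kidney, as elsewhere, the same particle serves every cell type that respires.

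The arrays held 15812 to 21599 values each, and the 14184 probes with 4 values were tested with limma. The lowest deposited ratio, 0.01 or -6.64 on the log2 scale, acts as a floor, so a value there gives no fold. Such values numbered 16 and 8 on arrays 1 and 2, against 1672 and 1805 on arrays 3 and 4. Among fixed kidney mesenchyme genes, 4 of 9 tested were called higher in MM and 1 lower. In the same limma fit, with a term for channel orientation, 23.8% of all tested probes were called higher and 38.1% lower. Six2 averaged 3.00 ± 0.63 (SD, n = 4) and Hoxa11 1.92 ± 0.59, Cited1 0.06 ± 0.35 was not called, and the lower one, Itga8, had 3.67 and 4.16 on arrays 1 and 2 but floor values on arrays 3 and 4, so its lower call comes from floor values and was lost without the orientation term (limma adjusted p = 0.767). Among fixed genes of gonad, adrenal cortex and duct, 4 of 7 tested were called lower and 1 higher. Nr5a1 averaged -1.68 ± 0.22, Wt1 -1.57 ± 0.02, Emx2 0.69 ± 0.36 and Lhx9 0.06 ± 0.15. Wt1 is also expressed in metanephric mesenchyme, so its lower ratio is not a mark of tissue identity. Emx2 lost its call without array 1, 2 or 4 (limma adjusted p = 0.0888, 0.0645 and 0.0547).

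Most mitochondrial ribosomal protein genes differed little between MM and IM, and more of them were lower in MM than higher. All 69 tested members had mean log2 ratios between -0.67 and 0.67, and 0 of them reached a 2-fold difference, against 13.1% of all tested probes. That 13.1% includes probes with floor values, which give no fold. Of the 14184 tested probes 993 held such a value, and no tested member did. In the limma fit with a term for channel orientation, at an adjusted p of 0.05, 14 members (20.3%) were called higher in MM, where the share over all tested probes was 23.8%. In the same fit 34 members (49.3%) were called lower, against 38.1% of all tested probes, and 21 members were not called. Of the 5408 probes behind that 38.1%, 855 held a floor value. The median log2 ratio was -0.14 over the members and -0.08 over all tested probes. That order turned with channel orientation: the members' median minus that of all tested probes was 0.03 and 0.02 on arrays 1 and 2 but -0.15 and -0.14 on arrays 3 and 4. Arrays 1 and 2 alone called 11 members higher and 12 lower, and arrays 3 and 4 alone 10 and 28. When each array was centred on its median, the member calls became 18 higher and 25 lower. For single orientations and centred arrays the shares over all tested probes are not given here. These counts therefore show only how the member calls moved with the setting.

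The residual of that fit comes only from arrays of the same orientation, so a stricter call was also read: past the threshold both with and without the orientation term. By that rule 8 members (11.6%) were higher, against 13.6% of all tested probes, and 15 (21.7%) were lower, against 14.4%. With the same sign on all 4 arrays there were 13 members higher and 33 lower, where the shares over all tested probes were 21.0% and 28.4%. The gap between these shares was not tested, because the members are not replicates. Without each array in turn, 7 of the 8 higher and 11 of the 15 lower members kept their call, and counted separately, 7 of the 8 and 11 of the 15 passed within each orientation alone.

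**Figure D1:**
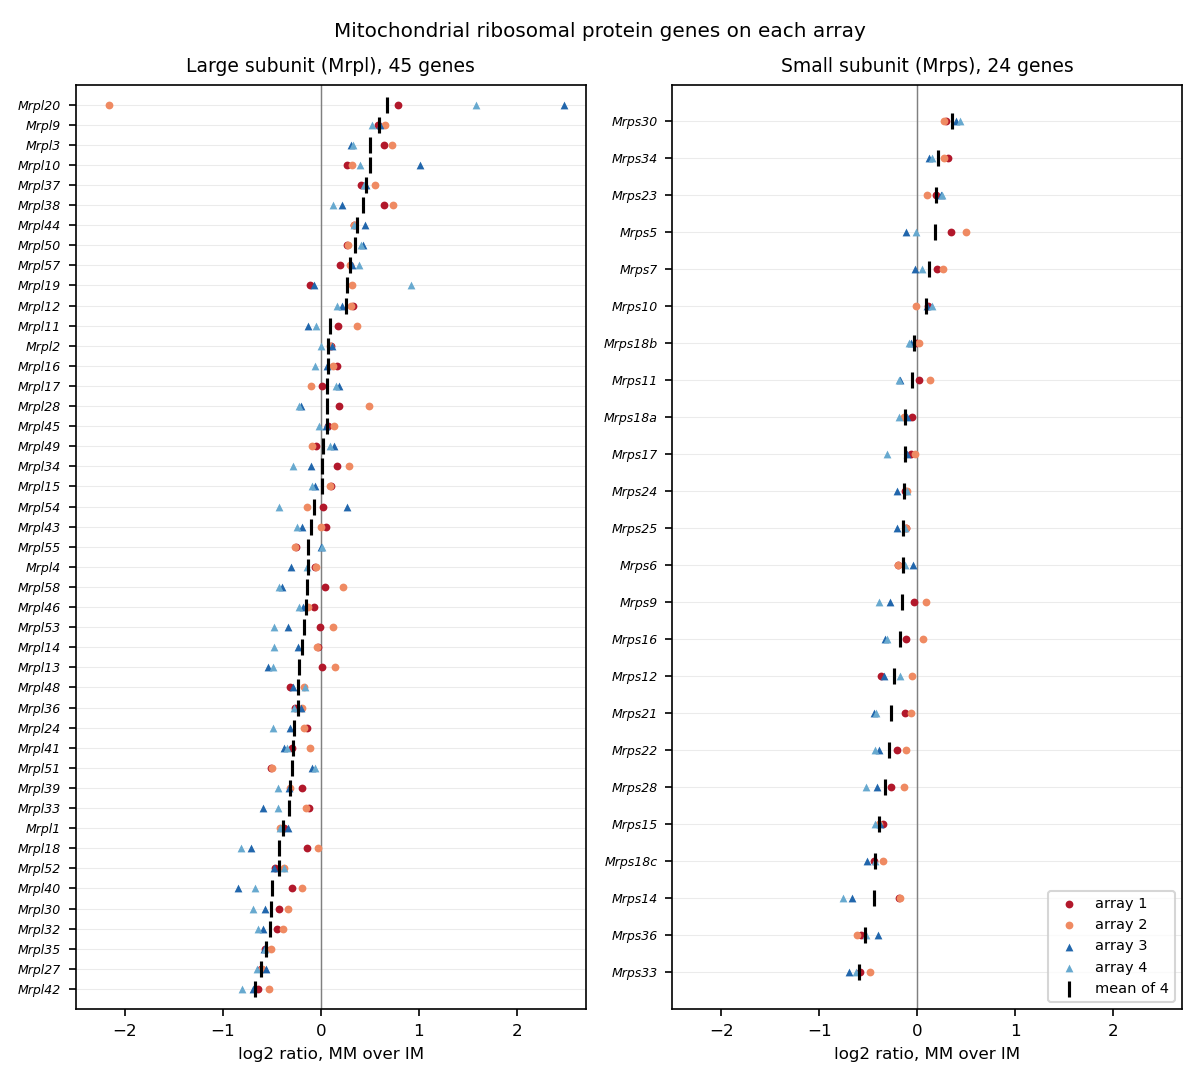
Log2 ratios of MM over IM (horizontal axis) for the 69 tested genes, sorted by mean within the large subunit (left) and the small subunit (right). Circles are arrays 1 and 2, triangles arrays 3 and 4, and black bars the mean of 4 arrays, and apart from Mrpl20 the means lie between -0.67 and 0.59.

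Members higher in MM were led by large subunit genes. Mrpl9, whose bacterial counterpart reaches out from the base of the L1 stalk, had log2 ratios of 0.59, 0.66, 0.60 and 0.52 on arrays 1 to 4. These 4 values lay close together and correspond to 1.51-fold (mean 0.59 ± 0.06, SD, n = 4, limma adjusted p = 0.0016). Mrpl3, a protein near the peptidyl transferase centre, read 0.65, 0.73, 0.31 and 0.33, with every value above 0 and both values of arrays 3 and 4 below those of arrays 1 and 2 (0.50 ± 0.21, adjusted p = 0.00176). Mrpl37, a protein with no bacterial counterpart, read 0.40, 0.56, 0.46 and 0.44 (0.47 ± 0.06, adjusted p = 0.00331).

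Mrpl44, a protein with a ribonuclease III fold, read 0.34, 0.34, 0.45 and 0.34 (0.37 ± 0.05, adjusted p = 0.00382). Mrps30 carries a small subunit name but sits in the large subunit in structures of the mammalian particle, and it read 0.30, 0.27, 0.39 and 0.44 (0.35 ± 0.08, adjusted p = 0.00279). The mitochondria-specific proteins Mrpl50 (0.35 ± 0.09, adjusted p = 0.00259) and Mrpl57 (0.30 ± 0.08, adjusted p = 0.00743) followed. Mrpl12, the stalk protein that recruits translation factors and also binds mitochondrial RNA polymerase, read 0.33, 0.31, 0.22 and 0.16 (0.26 ± 0.08, adjusted p = 0.00561). For all 8 genes each of the 4 arrays was above 0, which the rule for naming them required. The p-values above are from the limma fit with the orientation term. Without that term the limma adjusted p of the 8 genes ran from 0.0044 (Mrpl9) to 0.0341 (Mrpl12). Mrpl57 missed the threshold without array 4 (0.28, adjusted p = 0.0515).

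The remaining 6 members called higher passed only with the orientation term, and they are named here after their values were seen. Mrpl10, the base of the stalk that Mrpl12 joins, read 0.26, 0.32, 1.01 and 0.40, so array 3 alone set its SD of 0.34, and its call was lost without array 1 (adjusted p = 0.204) or array 2 (adjusted p = 0.217). Mrpl38, a protein of the central protuberance, read 0.65, 0.74, 0.22 and 0.12 (0.43 ± 0.31). The small subunit genes Mrps34 (0.22 ± 0.09), Mrps23 (0.19 ± 0.07), Mrps5 (0.18 ± 0.29) and Mrps7 (0.12 ± 0.13) completed the group. Each of these 4 lost its call without array 3 and without array 4, Mrps34 with adjusted p = 0.052 and 0.0573, Mrps23 with 0.0769 and 0.0798, Mrps5 with 0.103 and 0.156 and Mrps7 with 0.111 and 0.175. Mrps5 and Mrps7 also lost it without array 1 (adjusted p = 0.0698 and 0.09) and without array 2 (0.116 and 0.122).

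Members called lower in MM were more numerous, 34 with the orientation term, of which 15 passed in both fits. These 15 had SDs over 4 arrays of 0.16 or less, and the fit without the term itself favours a small SD. Members called lower only with the term had large SDs (Mrpl18 0.40, Mrpl13 0.35) as well as small ones (Mrps24 0.05, Mrps25 0.04). Mrpl42, a mitochondria-specific protein, had the lowest mean of the tested members, with log2 ratios of -0.64, -0.53, -0.69 and -0.81, or 1.59-fold lower in MM (-0.67 ± 0.12, SD, n = 4, limma adjusted p = 0.00181). Mrpl27, whose bacterial counterpart reaches into the peptidyl transferase centre, read -0.61, -0.60, -0.56 and -0.66 (-0.61 ± 0.04, adjusted p = 0.00138). Mrps33, a mitochondria-specific small subunit protein, read -0.59, -0.48, -0.70 and -0.62 (-0.60 ± 0.09, adjusted p = 0.00182). All 12 values of these genes were below 0, which the rule for naming them required, and none of them came near the floor.

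Mrpl35, a bacterial-type large subunit protein, read -0.56, -0.51, -0.58 and -0.57, a range narrower than that of the 3 genes before it (-0.56 ± 0.03, adjusted p = 0.0013). Mrps36 was named as a small subunit protein but belongs, by later work, to the 2-oxoglutarate dehydrogenase complex, and it read -0.57, -0.62, -0.40 and -0.52 (-0.53 ± 0.09, adjusted p = 0.00225). Mrpl32, a zinc-binding protein that the m-AAA protease processes before assembly, read -0.45, -0.38, -0.59 and -0.64 (-0.51 ± 0.12, adjusted p = 0.0017). The m-AAA subunit Afg3l2 itself read -0.88 and -0.68 on arrays 1 and 2 but 0.55 and 0.87 on arrays 3 and 4, and was not called (adjusted p = 0.727).

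Further lower members of both fits were Mrpl30 (-0.51 ± 0.16), Mrps18c (-0.44 ± 0.07), Mrpl52 (-0.43 ± 0.06), Mrps15 (-0.39 ± 0.03), Mrpl1 (-0.39 ± 0.04) and Mrpl39 (-0.32 ± 0.10). Mrpl1 forms the mobile L1 stalk at the exit site of the large subunit, Mrps18c belongs to the platform of the small subunit, and Mrps15 takes part in a contact between the subunits. Mrpl41 (-0.28 ± 0.12), Mrpl36 (-0.23 ± 0.04) and Mrpl48 (-0.23 ± 0.08) made up the 15. The 4 smallest of these means lost their call when single arrays were left out: Mrpl39 without array 1 (adjusted p = 0.0501), array 2 (0.0616) or array 4 (0.0535), and Mrpl36 without array 3 (0.0505) or array 4 (0.0614). Mrpl41 lost it without array 3 (0.0791) or array 4 (0.0735), and Mrpl48 without any of arrays 1 to 4 (0.0971, 0.0659, 0.101 and 0.0696). Without the orientation term the limma adjusted p of the 15 genes ran from 0.00367 (Mrpl27) to 0.0464 (Mrpl41).

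The sequences before the transcription start of 4 members are shown because nuclear genes for mitochondrial proteins are known to be driven through sites for NRF1 and ETS-family factors such as GABP, and because these are the highest and lowest members of both fits with 1 start site and free upstream sequence in RefSeq. Each is 250 bases on the gene's own strand, 5′ to 3′, from build GRCm38.p6, and ends at the base before the start site. Capitals mark the NRF1 core TGCGCA, which reads the same on both strands, and the ETS site CCGGAAG on either strand. Neither overlaps the other in these windows. Mrpl9 lies at chr3:94443086-94443335 (plus strand) and Mrpl3 at chr9:105053018-105053267 (plus strand), and both were higher in MM. Mrpl42 lies at chr10:95501950-95502199 (minus strand) and Mrps33 at chr6:39810937-39811186 (minus strand), and both were lower in MM.
Mrpl9: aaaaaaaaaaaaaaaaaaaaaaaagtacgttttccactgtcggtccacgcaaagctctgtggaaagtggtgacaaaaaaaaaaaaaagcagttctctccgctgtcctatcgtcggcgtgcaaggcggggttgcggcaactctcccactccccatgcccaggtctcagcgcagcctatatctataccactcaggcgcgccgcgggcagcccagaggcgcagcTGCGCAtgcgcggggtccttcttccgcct
Mrpl3: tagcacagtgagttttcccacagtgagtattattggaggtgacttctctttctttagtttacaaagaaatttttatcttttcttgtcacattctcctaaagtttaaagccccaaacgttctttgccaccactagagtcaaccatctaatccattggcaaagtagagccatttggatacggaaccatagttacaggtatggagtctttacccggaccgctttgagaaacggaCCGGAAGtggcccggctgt
Mrpl42: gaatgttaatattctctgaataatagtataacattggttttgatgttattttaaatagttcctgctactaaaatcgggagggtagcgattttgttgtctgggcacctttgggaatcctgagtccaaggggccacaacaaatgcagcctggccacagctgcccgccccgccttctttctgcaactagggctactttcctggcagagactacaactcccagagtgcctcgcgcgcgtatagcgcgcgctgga
Mrps33: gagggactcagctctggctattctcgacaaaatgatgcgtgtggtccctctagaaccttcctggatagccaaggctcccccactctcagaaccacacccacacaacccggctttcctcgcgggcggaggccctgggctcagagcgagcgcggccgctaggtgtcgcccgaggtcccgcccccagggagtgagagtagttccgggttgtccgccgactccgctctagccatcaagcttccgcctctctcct

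The Mrpl9 window held 1 NRF1 core, the Mrpl3 window 1 ETS site, and the Mrpl42 and Mrps33 windows neither set of letters. RefSeq promoters were matched for 64 of the 72 members, as 70 start sites. The NRF1 core was found in 18 of these 70 windows (25.7%), against 8.06% of 21263 windows of protein-coding genes and 6.43% of all 32851 windows. The ETS site was found in 15 (21.4%), against 8.98% and 6.91%. A TATA box, searched as TATAAA on both strands, was found in 5 (7.14%), against 11.6% and 12.4%. The median GC content was 58.4% in the members' windows and 55.6% in those of protein-coding genes. Among members called higher in MM with the orientation term, 6 of 12 windows held the NRF1 core and 1 the ETS site. Among those called lower, 4 of 36 windows held the NRF1 core and 9 the ETS site, and among those not called 7 of 19 and 5 of 19 did. These matches describe letters in a window, and no difference between them was tested.

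The members' ratios differed between channel orientations by amounts not far below the tissue ratios themselves, with a median absolute difference of 0.17 beside a median absolute mean of 0.23, and 46 of 69 had the same sign on all 4 arrays. The orientation term was called for 17 of 69 members (24.6%), against 44.6% of all tested probes, and the median absolute difference over all tested probes was 0.34. The median SD over 4 arrays was 0.12 for the members and 0.22 for all. Across the 68 members other than Mrpl20, Pearson's r between arrays of opposite orientation was 0.656 to 0.761. Across all 69 members it was -0.0494 to 0.751. Across 13191 probes without a floor value, from which no probe like Mrpl20 was left out, it was 0.113 to 0.274. These are correlations across genes that share arrays and RNA, given as a description, and the gap to other probes was not tested.

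Mrpl20, an early-binding large subunit protein, stood apart with log2 ratios of 0.79, -2.16, 2.48 and 1.58 on arrays 1 to 4. Its array 2 value was the lowest of any tested member on any array, its array 3 value the highest, and its mean of 0.67 ± 2.01 was not called (adjusted p = 0.4). With it, r across the 69 members was -0.0494 to 0.751 between orientations, so this gene alone decides the lower end. The next largest differences between orientations were in Mrpl18, a protein of the central protuberance (-0.14, -0.03, -0.72 and -0.81), and Mrpl13 (0.01, 0.15, -0.54 and -0.48). Mrpl28 (0.19, 0.49, -0.20 and -0.22) and Mrpl58, a peptidyl-tRNA hydrolase that frees stalled ribosomes (0.04, 0.23, -0.39 and -0.43), followed. In these last 4 genes arrays 1 and 2 lay above arrays 3 and 4, without overlap. Mrpl18 was called lower with the orientation term (-0.42 ± 0.40, adjusted p = 0.00389) but not without it (adjusted p = 0.171). Mrpl13 was called lower too (-0.22 ± 0.35, adjusted p = 0.0171), but not without the term (adjusted p = 0.384) or without array 1, 3 or 4 (adjusted p = 0.0515, 0.0918 and 0.0756). Mrpl28 (0.06 ± 0.34, adjusted p = 0.444) and Mrpl58 (-0.14 ± 0.32, adjusted p = 0.0704) were not called. Without array 1 Mrpl28 was called higher (0.14, adjusted p = 0.0401), and without array 2 Mrpl58 was called lower (-0.18, adjusted p = 0.0343).

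**Figure D2:**
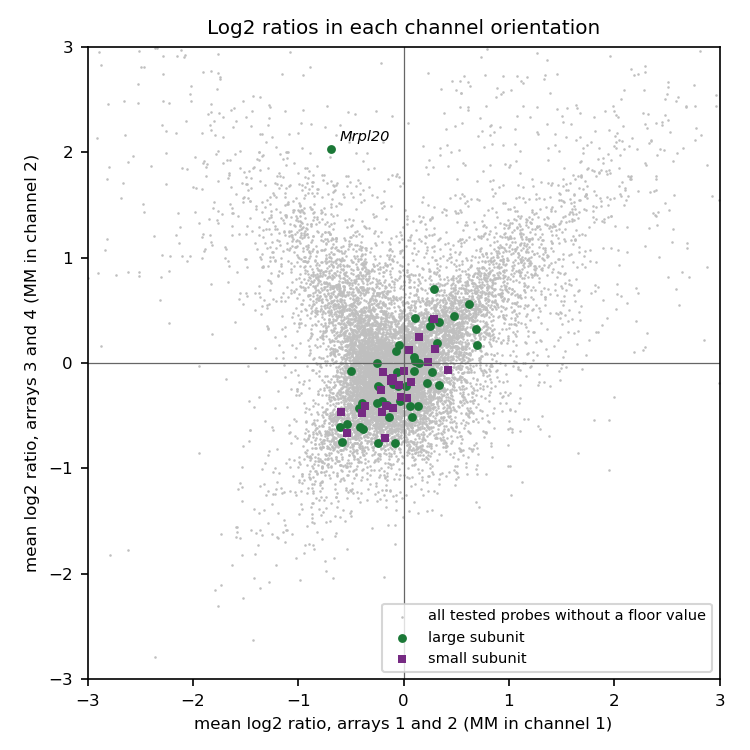
Mean log2 ratio of arrays 1 and 2 (horizontal) against that of arrays 3 and 4 (vertical) for large subunit genes (green circles), small subunit genes (purple squares) and tested probes without a floor value (grey, 13110 of 13191 within the axes). The members lie along the rising diagonal, and Mrpl20 lies far from them at the upper left.

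The large and small subunits did not differ by more than the spread between arrays. The median log2 ratio of the 45 tested large subunit genes was -0.01, -0.04, -0.18 and -0.22 on arrays 1 to 4, and that of the 24 small subunit genes was -0.11, -0.06, -0.21 and -0.19. The large minus small difference of these medians was 0.11, 0.02, 0.02 and -0.03, a mean of 0.03 ± 0.06 (SD, n = 4), and its sign was not the same on every array. Both subunits lay lower on arrays 3 and 4 than on arrays 1 and 2, while all tested probes had medians of -0.09, -0.07, -0.04 and -0.04 in array order. An exact sign-flip test on 4 arrays cannot give a two-sided p below 0.125, so none was run.

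**Figure D3:**
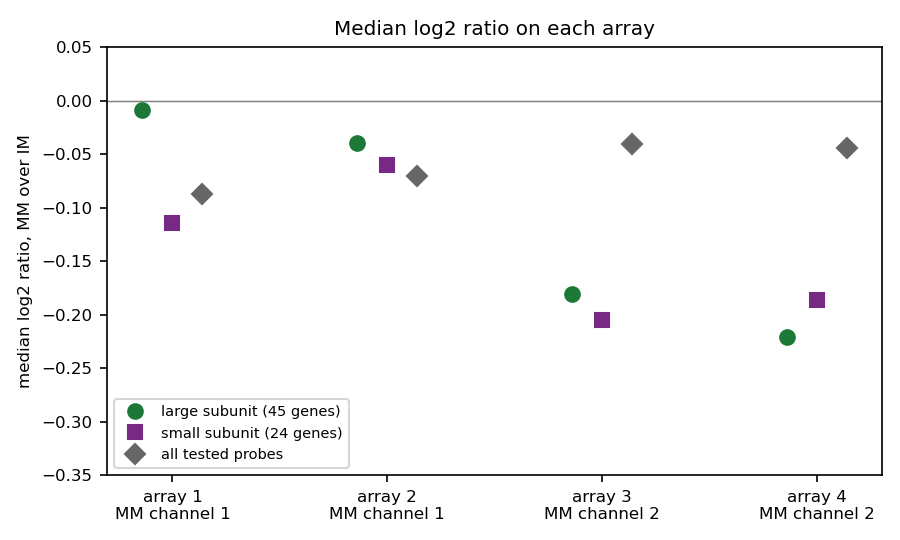
Median log2 ratio of MM over IM (vertical axis) on each array for large subunit genes (circles), small subunit genes (squares) and all tested probes (diamonds). The subunit medians are lower on arrays 3 and 4, at -0.18 to -0.22, than on arrays 1 and 2, at -0.01 to -0.11.

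By calls with the orientation term, 9 large subunit genes were higher, 21 lower and 15 not called, and 5 small subunit genes were higher, 13 lower and 6 not called. As shares these are 20.0% higher and 46.7% lower for the large subunit and 20.8% and 54.2% for the small subunit, beside 23.8% and 38.1% of all tested probes, so the shares higher lie near the background. In both fits 7 large subunit genes (15.6%) were higher and 11 (24.4%) lower. Of the small subunit genes 1 (4.17%), Mrps30, was higher and 4 (16.7%) were lower. The shares over all tested probes were 13.6% and 14.4%, so the large subunit's share higher and the small subunit's share lower lie near them. When genes were sorted by where structures place the protein (Mrps30 and Mrps18a in the large subunit, Mrps36 in neither), 8 of 47 large subunit genes were higher in both fits and 11 lower, against 0 and 3 of 21 small subunit genes. At the orientation-term call alone 4 of those 21 were higher and 12 lower. The placing was made with these values known and carries no test.

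The members were also counted by descent. The 41 tested proteins with a bacterial homolog had 6 higher and 21 lower genes with the orientation term and a median of -0.14. The 25 mitochondria-specific proteins had 7 higher and 12 lower and a median of -0.14. In both fits these were 3 (7.3%) and 8 (19.5%) of the bacterial type and 4 (16%) and 6 (24%) of the mitochondria-specific type. Of all tested probes 13.6% were higher and 14.4% lower in both fits, so the mitochondria-specific type's share higher lies near the background. The share higher with the term was 14.6% for the bacterial type and 28.0% for the mitochondria-specific type, beside 23.8% of all tested probes, and the share lower was 51.2% and 48.0%, beside 38.1%. The types were not tested against each other.

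The members closest to no difference were Mrpl15 (0.01 ± 0.10), Mrpl34 (0.02 ± 0.26), Mrpl49 (0.02 ± 0.11), Mrps18b (-0.03 ± 0.05) and Mrps11, a platform protein of the small subunit (-0.05 ± 0.15). None of these 5 was called (limma adjusted p = 0.237 to 0.794). Mrps18b read -0.01, 0.02, -0.06 and -0.09, the tightest of them. Mrpl34 ranged from -0.28 to 0.29 with both orientations on opposite sides of 0, so its mean near 0 joined unlike values. A p that misses the threshold does not show that the tissues had equal levels.

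There were 3 members that lacked a value on at least 1 array, and each of these also stood at the floor on an array. Mrpl23, a protein at the tunnel exit whose gene neighbours the imprinted H19 region, read 1.94 and 1.90 on arrays 1 and 2, the floor on array 3 and no value on array 4. Mrpl21 read 0.54 and 0.73 on arrays 1 and 2, the floor on array 3 and no value on array 4. Mrps31 had a value on array 4 alone, the floor. For Mrpl23 and Mrpl21 the 2 orientations thus gave opposite signs, and no fold was drawn from them. The 69 other members never reached the floor, whereas 993 of the 14184 tested probes did.

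Of 7 listed proteins of the same particle that carry other symbols, 3 were measured, and 2 of these were higher in MM and 1 lower. Over all tested probes 23.8% were higher and 38.1% lower with the orientation term, and 13.6% and 14.4% in both fits. A list of 3 genes is too short for a share to be compared with these. Ptcd3, the small subunit pentatricopeptide protein at the mRNA entry side, read 1.23, 1.16, 1.38 and 1.40, or 2.45-fold higher in MM (1.29 ± 0.12, SD, n = 4, limma adjusted p = 0.000442). Dap3, the GTP-binding protein of the small subunit, read 0.82, 0.85, 0.49 and 0.54 (0.67 ± 0.19, adjusted p = 0.000982). Both were above 0 on every array and passed in both fits. Chchd1, a further small subunit protein, read -0.02, -0.01, -0.69 and -0.57 and was called lower only with the orientation term (-0.33 ± 0.36, adjusted p = 0.00563), and not without array 1 (0.056) or array 2 (0.0541).

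Of 10 tested translation factors and mRNA-binding partners, 7 were higher and 3 lower with the orientation term, 4 and 2 in both fits, with a median of 0.27. All tested probes gave 23.8% higher and 38.1% lower with the term, and 13.6% and 14.4% in both fits. Gfm1, the mitochondrial elongation factor G1 that moves the tRNAs, read 3.01, 3.06, 3.50 and 3.47, or 9.57-fold higher (3.26 ± 0.26, adjusted p = 0.000172). Lrpprc, which stabilises mitochondrial mRNAs, averaged 1.43 ± 0.63 (adjusted p = 0.00885) and lost its call without array 3 (0.0586) or array 4 (0.0577). Its partner Slirp read -0.99, -0.80, -0.92 and -0.87 and was lower (-0.89 ± 0.08, adjusted p = 0.00135), as was the initiation factor Mtif2 (-0.28 ± 0.03, adjusted p = 0.00399). Lrpprc and Slirp, which form one complex, thus had opposite signs on all 4 arrays.

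Of 21 tested ribosome assembly factors, 11 were higher and 3 lower with the orientation term, 7 and 1 in both fits, with a median of 0.30. Over all tested probes the shares were 23.8% higher and 38.1% lower with the term, 13.6% and 14.4% in both fits. Mettl15, which methylates the small subunit rRNA, read 0.94, 0.95, 2.06 and 2.08 (1.51 ± 0.65, adjusted p = 0.000302), and the helicase Dhx30 read 1.31, 1.46, 1.61 and 1.54 (1.48 ± 0.13, adjusted p = 0.000579). Both exceeded every tested member in mean. Malsu1, which keeps the immature large subunit from joining too early, was lower (-0.40 ± 0.07, adjusted p = 0.00201). Mrm1, an rRNA methyltransferase, was slightly lower (-0.17 ± 0.06, adjusted p = 0.0273) with the call lost without array 1, 3 or 4 (0.0544, 0.126 and 0.105) or without the orientation term (0.0694).

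**Figure D4:**
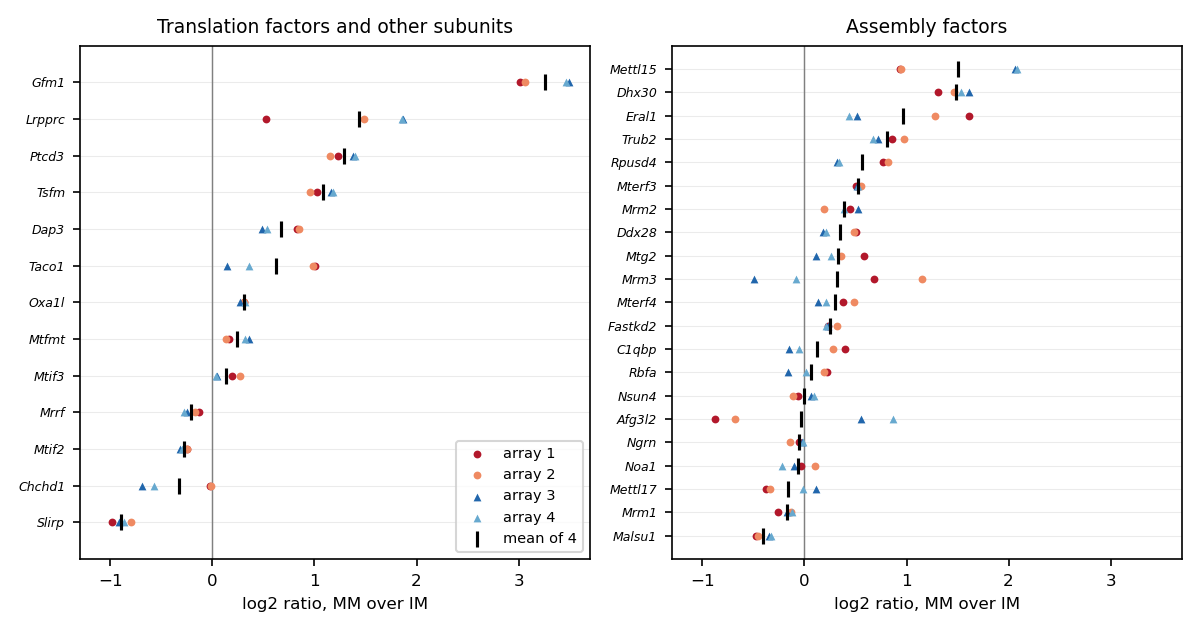
Log2 ratios of MM over IM for translation factors and ribosomal proteins under other symbols (left) and for assembly factors (right). Symbols are as in the plot of the members by array, and Gfm1, at 3.26, has the highest mean.

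Of 12 tested probes for mitochondrial tRNA synthetases and amidotransferase subunits, 3 were higher, 2 lower and 7 not called, and 1 was higher and 0 lower in both fits. The shares over all tested probes were 23.8% higher and 38.1% lower with the orientation term, and 13.6% and 14.4% in both fits. Hars2 was higher (0.59 ± 0.12, adjusted p = 0.00278). Fars2 (0.19 ± 0.12, adjusted p = 0.0115), Qrsl1 (-0.19 ± 0.09, adjusted p = 0.00963) and Sars2 (-0.14 ± 0.02, adjusted p = 0.0218) each lost the call without array 3 (0.0724, 0.0655 and 0.0968) or array 4 (0.0696, 0.0574 and 0.112), and all 3 lost it without the orientation term (0.122, 0.077 and 0.0802). Of 8 tested genes of mitochondrial transcription and biogenesis, 2 were higher, 2 lower and 4 not called, with 1 and 1 in both fits. Tfb2m, a transcription factor of mitochondrial DNA, was higher (0.92 ± 0.19, adjusted p = 0.00197). Nrf1 was called higher (0.39 ± 0.31, adjusted p = 0.00566) but not without array 1 (0.0639), array 2 (0.0589) or the orientation term (0.129). Ssbp1, which coats single-stranded mitochondrial DNA, was called lower (-0.85 ± 0.37, adjusted p = 0.0168) but not without array 1 (0.147) or array 2 (0.131), and Polg2 (-0.18 ± 0.14, adjusted p = 0.0286) lost its call without any 1 of the 4 arrays (0.065 to 0.137) and without the term (0.147). Ppargc1a read 4.2 and 5.2 on arrays 1 and 2, had no value on array 3, stood at the floor on array 4 and was not tested.

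Cytosolic ribosomal proteins and the nuclear respiratory chain genes were set beside the members as the most similar families. Of 75 tested probes for cytosolic ribosomal proteins, 27 were higher and 24 lower with the orientation term and 4 and 10 in both fits. Their median was -0.24, -0.29, 0.21 and 0.25 in array order. The orientation term was called for 61.3% of them, against 24.6% of the mitochondrial ribosomal proteins. For respiratory chain probes that share was 39.5%, and for all tested probes 44.6%. Of 76 tested respiratory chain probes, 9 were higher and 45 lower with the orientation term and 3 and 19 in both fits. Their median was below 0 on every array (-0.14, -0.11, -0.33 and -0.30). With the term, 36.0% of the cytosolic and 11.8% of the respiratory chain probes were higher, beside 23.8% of all tested probes. The shares lower were 32.0% and 59.2%, beside 38.1%. In both fits 13.6% of all tested probes were higher and 14.4% lower. The members' own medians were -0.05, -0.05, -0.19 and -0.19. All tested probes also had medians below 0 on every array, at -0.09, -0.07, -0.04 and -0.04, so on arrays 1 and 2 they lay below the members. The differences between the families were not tested.

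**Figure D5:**
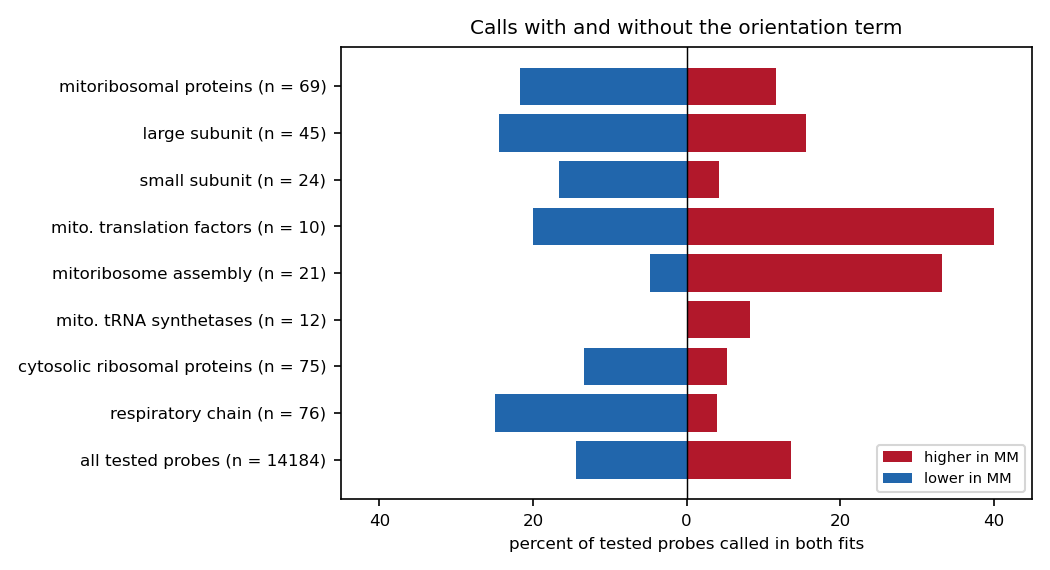
Percent of tested probes called higher in MM (red, right of 0) and lower in MM (blue, left of 0) both with and without the orientation term, for the members, related families and all tested probes, with the number tested in brackets. Members reach 11.6% higher and 21.7% lower, all tested probes 13.6% and 14.4%.

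Markers of other cell types also differed. Striated muscle markers were lower in MM for 9 of 10 tested and higher for 1 with the orientation term (6 and 1 in both fits), led by Myl1 at -2.57 ± 0.26, while Des was higher at 0.97 ± 0.13. Of the 9, Tnnc2 (1.69 and 2.52 on arrays 1 and 2) and Myod1 (1.00 and -0.23) were lower only through floor values on arrays 3 and 4. Actc1 (3.49 and 4.22) and Ckm (1.02 and 0.59) had values on arrays 1 and 2 alone and were not tested. Myog averaged -0.67 ± 0.63 and was not called without the orientation term (limma adjusted p = 0.165). Erythroid markers gave 3 higher, 3 lower and 2 not called among 8 tested probes with the orientation term. In both fits they gave 0 higher and 2 lower. Hbb-bh1 averaged -0.85 ± 0.13, Epor -0.48 ± 0.07 and Hba-a1 0.27 ± 0.76. Beside both marker lists, 23.8% of all tested probes were higher and 38.1% lower with the orientation term. In both fits these shares were 13.6% and 14.4%. Hba-a1 read -0.40, -0.37, 0.98 and 0.88, and its call as higher was lost without array 1 or 2 (limma adjusted p = 0.0555 and 0.0577) and without the orientation term (0.619). The files hold ratios and no levels, and the part of these cells in the members' ratios was not tested.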

How the data were processed

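Per the labels' protocols, the authors quantified spots with Imagene 5.5, swapped signal with control on arrays 3 and 4 for the dye reversal, adjusted the control value by a lowess fit with a span of 20.0%, and raised control values under 10 to 10. The sources used here do not give background correction, spot flags or filters. The deposited values are log2 ratios: read in base 2, 98.9% to 100% of ratios under 1 were whole thousandths (tolerance 0.01 thousandths), against at most 21.1% from base e or 10. No intensities were used here, so brightness over background cannot be given; precision is limited by how few arrays there are.

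Log2 ratios of the 14184 probes with a value on 4 arrays were fitted with limma 3.58.1 (R 4.3.3), where the intercept is the tissue difference and a further term takes up channel orientation. Moderated two-sided p-values received Benjamini-Hochberg adjustment over all tested probes, with a threshold of 0.05. Nothing says that the arrays hold separate RNA extracts, and the p-values therefore reflect array-to-array spread, possibly technical. The scripts were tested on simulated data. Probe names came from the platform annotation; all 72 members matched the RefSeq table of GRCm38.p6 and kept their symbols. Promoter sequences are RefSeq's.

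Named members were, by rule, those called in both fits with 1 sign on 4 arrays (at most 12 a direction), those at the floor, the 5 with the largest difference between orientations and the 5 nearest 0, and for the other lists the highest and lowest 2 and those at the floor. Added after their values were seen were the members called higher only with the orientation term, and Mrpl41, Mrpl36, Mrpl48 and Mrps25. Afg3l2, Actc1 and Ckm were also named outside the rule. Left out above were Hba-x, the highest tested erythroid probe (0.30 ± 0.82, not called), and Sall1, untested and at the floor on array 4. The members and lists (other ribosomal proteins, translation factors, assembly factors, tRNA synthetases, transcription and biogenesis, kidney mesenchyme, gonad, adrenal and duct, erythroid, striated muscle) were chosen with earlier results of these data known. Alternatives were no orientation term, averaged orientations, floor values left out, centred or scaled arrays, array weights, 3 or more values, probes averaged by gene, each orientation alone and each array left out.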

Additional observations from a re-analysis of the deposited data

Results flagged for a closer look

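Among 73 sets of 4 array values examined, for the 69 tested members and 4 subunit summaries, 2 had an array far from the other 3 relative to the whole range, where chance alone gives about 1 in 20. Mrpl44 read 0.45 on array 3 against 0.34 on each of the other arrays, a gap of 0.949 of its range. Mrps25, a mitochondria-specific small subunit protein, read -0.21 on array 3 against -0.11, -0.12 and -0.13 on arrays 1, 2 and 4, a gap of 0.866 of its range. Its call as lower (-0.14 ± 0.04, SD, n = 4, limma adjusted p = 0.0262) was lost without array 3 (adjusted p = 0.117) and without arrays 1, 2 and 4 (adjusted p = 0.0927, 0.093 and 0.0771), each left out alone, and without the orientation term (adjusted p = 0.0889). Both ranges were small, and in both genes all 4 arrays had the same sign.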

How the results depend on the processing

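The main counts of 14 higher and 34 lower members became 8 and 15 without the orientation term and 0 and 0 in limma with each orientation averaged to 1 value, where 5 members had an unadjusted p under 0.05. They were 11 and 12 on arrays 1 and 2 alone and 10 and 28 on arrays 3 and 4 alone. Leaving out 1 array gave 9 to 12 higher and 19 to 24 lower. The remaining alternatives gave 12 to 18 higher and 25 to 35 lower. For single orientations, left-out arrays and these remaining alternatives the shares over all tested probes are not given here. Their counts show only how the member calls moved. The members' median of -0.14 was -0.051 on arrays 1 and 2 alone, and within the spread between arrays under every other alternative. On arrays 1 and 2 alone the sign turned for Mrpl20 (-0.69), Mrpl13 (0.078), Mrpl58 (0.14), Mrpl49 (-0.068), Mrps18b (0.0035), Mrps11 (0.070), Hba-a1 (-0.39), Itga8 (3.91), Myod1 (0.38) and Tnnc2 (2.10). On arrays 3 and 4 alone it turned for Mrpl28 (-0.21), Mrpl15 (-0.073), Mrpl34 (-0.19), Mrps5 (-0.063) and Cited1 (-0.23). With arrays centred it turned for Mrps18b (0.026) and Mrps11 (0.0061). Without 1 array in turn, signs turned for Mrpl20 (-0.067 to 1.41), Mrpl28 (-0.011 to 0.14), Mrpl34 (-0.029 to 0.062) and Lhx9 (-0.023 to 0.15). The cause was not tested. Each ratio already pairs MM with IM on 1 array. No further paired analysis was possible because all 4 arrays form 1 group of such direct ratios.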
